A study of Homo sapiens with 24 samples.

Results

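The experiment described here is the response of KG-1a cells to 24 h of 8CA (8-chloro-adenosine). It was followed in 4 RNA sequencing libraries, 2 treated and 2 untreated, out of 24 in the whole series. The 4 libraries were taken by cell line, treatment and hours alone, and all 23354 genes of the count table were considered. KG-1a is an established human acute myeloid leukemia (AML) line, labelled WT like every sample of the series. The treated cells received 1 μM 8CA for 24 h, and the untreated cells were those labelled with the same 24 h. For comparison, KG-1a cells with 1 μM 8CA for 8 h and their own untreated 8 h cells, KG-1a cells with 1 μM 8AA (8-amino-adenosine) for 24 h, and MV4-11 cells, another established AML line, with 1 μM 8CA for 24 h and their own untreated cells were used. Each of these groups had 2 libraries, replicates A and B. The labels do not say whether A and B were separate cultures, so p-values measure the spread between these libraries, which may be technical. Values come from single lines in culture and hold no donor variation.

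The total count of the 4 libraries lay between 18633963 and 21314351 reads. The chi-square per degree of freedom between A and B was 1.641 in the untreated and 1.644 in the 8CA libraries, so A and B differed by more than sampling noise, which does not show that they came from separate cultures. It was 12.25 between the KG-1a libraries with 8AA at 24 h, the widest pair of the series. This touches the comparison of the drugs, and the pair also enters the spread estimated for every KG-1a comparison. Without the pair in the fit, the genes called with 8CA (defined below) went from 6021 to 6999 at 24 h and from 112 to 740 at 8 h. As checks of the label, the 4 libraries held 6840 to 8406 reads of CD34, a surface protein of blood progenitors, 12237 to 14853 of SPN (CD43) and 8017 to 9574 of CD44. CD33, which marks many myeloid cells, was near 0, with 7 to 21 reads. Of markers of other blood cells, the T cell list held 4342 to 5923 reads, mostly CD3D with 678 to 751 of CD3E, while CD4 had at most 1 read. The megakaryocyte list held 1125 to 1208 reads, nearly all of ITGA2B, with GP9, PF4 and PPBP at 0, and 6 of the 7 erythroid markers were at 0 in all 4 libraries. The B cell list held 86 to 141 reads with MS4A1 at 0.

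8CA and 8AA are analogs of adenosine, a building block of RNA and ATP. They differ in a single group on the base, which is a chlorine atom in 8CA and an amino group in 8AA. Several pathways that cells use to sense shortage or damage recur below. In the integrated stress response, kinases that sense amino acid shortage, misfolded proteins, viral RNA or low heme phosphorylate the translation factor eIF2. General translation then slows, while the transcription factor ATF4 is made in larger amounts and turns on genes for amino acid synthesis, amino acid import and tRNA charging. The unfolded protein response of the endoplasmic reticulum (ER) raises chaperones through the factors ATF6 and XBP1, and shares one arm with ATF4. The SREBP factors hold up the genes of cholesterol and fatty acid synthesis.

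Promoter stretches of genes from these pathways are shown first, because the ATF4 genes and the ER chaperones moved in opposite directions. They come from RefSeq on GRCh38.p14, and the windows searched ran from 250 bases before to 50 bases after each gene start. The letters of an ATF4 composite element, TGATGNAA on either strand, are in capitals in the first stretches.
CHAC1: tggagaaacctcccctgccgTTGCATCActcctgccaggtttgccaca
ATF3: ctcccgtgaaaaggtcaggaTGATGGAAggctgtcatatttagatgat
ASNS: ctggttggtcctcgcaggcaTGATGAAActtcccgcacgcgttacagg
AARS: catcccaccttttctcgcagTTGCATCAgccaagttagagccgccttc
These lie at chr15:40953242-40953289 on the plus strand for CHAC1, chr1:212565196-212565243 on the plus strand for ATF3, chr7:97872449-97872496 on the minus strand for ASNS and chr16:70289666-70289713 on the minus strand for AARS (AARS1 in RefSeq). The capitals begin 209, 191, 68 and 187 bases before the gene start, in that order. The letters of the ER stress element, CCAAT, 9 bases of any kind and CCACG on either strand, are in capitals in the next stretches, which belong to chaperones of the ER.
HSPA5: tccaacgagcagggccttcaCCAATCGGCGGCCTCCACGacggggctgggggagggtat
HSP90B1: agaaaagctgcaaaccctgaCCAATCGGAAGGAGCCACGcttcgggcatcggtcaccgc
CALR: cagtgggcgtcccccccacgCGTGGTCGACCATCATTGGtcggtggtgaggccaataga
CRELD2: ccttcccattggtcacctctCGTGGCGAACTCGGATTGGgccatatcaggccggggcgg
They lie at chr9:125241371-125241429 on the minus strand for HSPA5, and on the plus strand at chr12:103930196-103930254 for HSP90B1, chr19:12938364-12938422 for CALR and chr22:49918534-49918592 for CRELD2. HSP90B1 also held a further match, as the reverse complement, that begins 89 bases before the gene start and is not printed. All of these motifs lie upstream of the gene start that RefSeq gives, outside the annotated exons of the gene they are named for. HERPUD1, an ER gene of protein degradation, held the ATF4 letters.
HERPUD1: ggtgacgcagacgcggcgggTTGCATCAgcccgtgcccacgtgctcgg
This stretch is at chr16:56931946-56931993 on the plus strand. A match of letters is a description of the sequence and does not show that a factor was bound.

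After 24 h of 8CA, KG-1a cells held more RNA of ATF4 pathway genes and less RNA of ER chaperones, cholesterol synthesis enzymes, cytosolic chaperones, proteasome subunits and respiratory chain subunits. Of the 12711 genes with enough reads to be tested, 6021 were called (47.4%), 3049 lower (24.0%) and 2972 higher (23.4%). A call is an adjusted p below 0.05 in the quasi-likelihood test of edgeR, where p-values were adjusted after Benjamini and Hochberg over every gene tested. Most of these changes were small. The median absolute log2 fold change of the called genes was 0.36, and 4293 of them (71.3%) moved by less than 0.5. A change of at least 1 on the log2 scale was called lower in 89 genes (0.70%) and higher in 261 (2.05%), and one of at least 2 lower in 7 and higher in 41. The treated and untreated libraries did not overlap in 6018 of the called genes, beside 76.8% of all genes tested. In bulk RNA, fewer cells of a kind and less RNA per cell cannot be told apart, and each value is relative to the rest of the library.

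**Figure D1:**
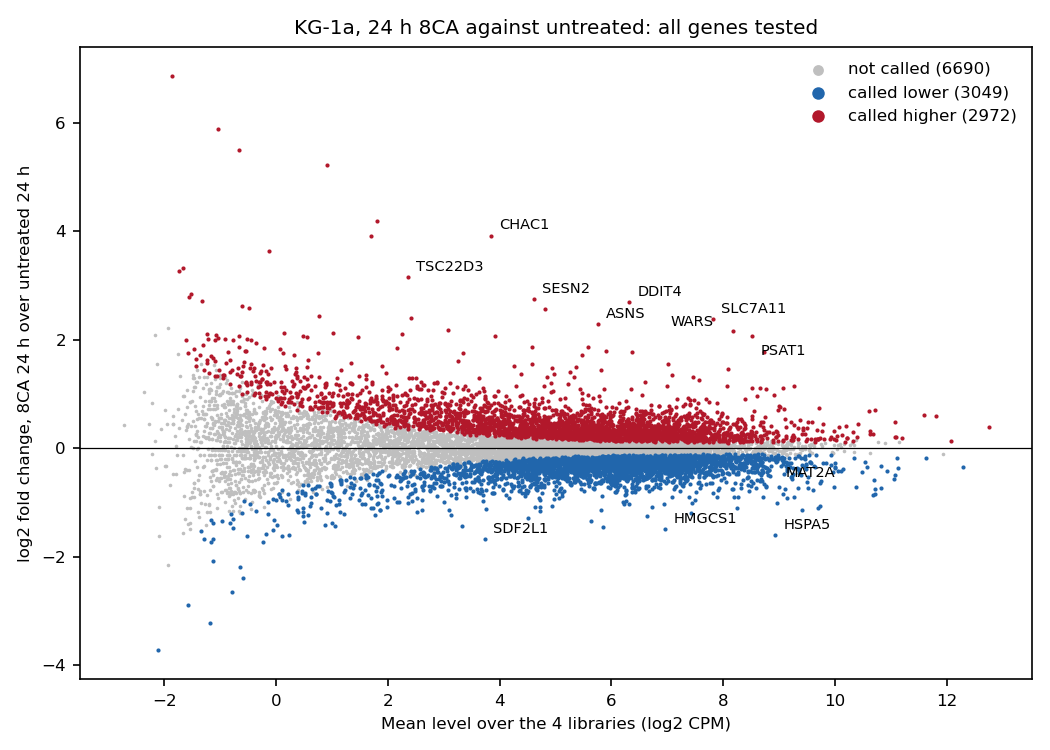
Each point is 1 of the 12711 genes tested, with its mean level over the 4 libraries (log2 CPM) on the horizontal axis and its log2 fold change (8CA 24 h over untreated 24 h) on the vertical axis, red where called higher, blue where called lower and grey where not called. The 11 labelled genes other than MAT2A lie beyond 1 in either direction, while MAT2A, at −0.23, lies close to the zero line.

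Of the lists with at least 5 genes tested, the ATF4 list had the highest median change. Of its 28 genes tested, 23 were called higher and 1 lower, with a median log2 fold change of 1.34, beside a median of 0.01 over all genes tested. CHAC1, which degrades glutathione, stood at 3.63 and 3.64 CPM (reads of the gene per 1000000 reads of the library, after scaling by TMM, the trimmed mean of M-values) in the untreated libraries and at 56.8 and 53.4 CPM with 8CA. Both treated libraries were far above both untreated ones, and the log2 fold change was 3.92 ± 0.09 (SE, standard error, worked back from the F statistic of edgeR's test). STC2, a secreted glycoprotein, went from 0.504 and 1.09 CPM to 14.5 CPM in each treated library, a log2 fold change of 4.19 ± 0.20. ATF4 RNA itself stood at 362 and 370 CPM untreated and at 802 and 785 CPM with 8CA, a change of 1.12 ± 0.06. Its partners and successors in the pathway were higher too. ATF3, a factor of the same family, stood at 4.29 and 3.48 CPM untreated and at 18.6 and 16.8 CPM with 8CA (2.18 ± 0.14), and DDIT3 (CHOP), a factor linked to cell death under long stress, at 2.02 and 2.5 CPM against 12.4 and 11.6 CPM (2.41 ± 0.17). CEBPB rose by 1.31 ± 0.10 and CEBPG by 0.51 ± 0.05.

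The feedback and growth regulators of the pathway rose as well. SESN2, which restrains the growth kinase mTORC1, stood at 8.82 and 9.95 CPM untreated and at 62.8 and 63.4 CPM with 8CA, a log2 fold change of 2.75 ± 0.08. DDIT4 (REDD1), another restraint on mTORC1, stood at 30.2 and 32.3 CPM against 206 and 197 CPM, a change of 2.69 ± 0.07. TRIB3, a pseudokinase that damps ATF4, rose by 1.72 ± 0.07, and PPP1R15A (GADD34), which directs a phosphatase to eIF2, by 1.37 ± 0.08. In none of these genes did the treated libraries overlap the untreated ones, which also held for 6018 of all 6021 called genes. EIF4EBP1, an inhibitor of cap-dependent translation that stands in the list of translation factors, rose from 119 and 125 CPM to 302 and 279 CPM, by 1.25 ± 0.07.

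The enzymes and carriers of amino acids formed the largest block of the ATF4 list. SLC7A11, the cystine importer, stood at 103 and 94.9 CPM in the untreated libraries and at 499 and 529 CPM with 8CA, a log2 fold change of 2.38 ± 0.11. Its heavy chain SLC3A2 rose by 1.77 ± 0.05, the glutamine carrier SLC1A5 by 1.10 ± 0.06, SLC38A2 by 0.91 ± 0.06 and SLC7A5 by 0.70 ± 0.05. ASNS, which makes asparagine, stood at 23.5 and 25.2 CPM against 120 and 118 CPM, a change of 2.29 ± 0.08. The 3 enzymes of serine synthesis all rose. PHGDH, the first of them, rose by 1.55 ± 0.06 and PSPH, the last, by 0.96 ± 0.06, while PSAT1, between them, went from 180 and 178 CPM to 746 and 760 CPM, by 2.07 ± 0.04. The mitochondrial folate enzymes ALDH1L2, SHMT2 and MTHFD2 rose by 2.57 ± 0.08, 1.31 ± 0.05 and 1.11 ± 0.04. Of the wider list of serine and folate enzymes, 8 of 19 rose and 8 fell, so the change was not shared by the whole list. Among those that fell were GCSH, of the glycine cleavage system, by 0.71 ± 0.08, and SLC25A32, the mitochondrial folate carrier, by 0.55 ± 0.06.

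The kinases that sense stress upstream of ATF4 did not rise. EIF2AK4 (GCN2), the sensor of uncharged tRNA, was the gene of the list called lower, at 137 and 135 CPM untreated and 108 and 107 CPM with 8CA, a log2 fold change of −0.34 ± 0.04. The changes of EIF2AK3 (PERK), EIF2AK2 (PKR) and EIF2AK1 (HRI) were −0.04, 0.04 and −0.11 and were not called, nor was that of ATF5, at −0.06. VLDLR and NUPR1, also on the list, had too few reads to be tested.

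**Figure D2:**
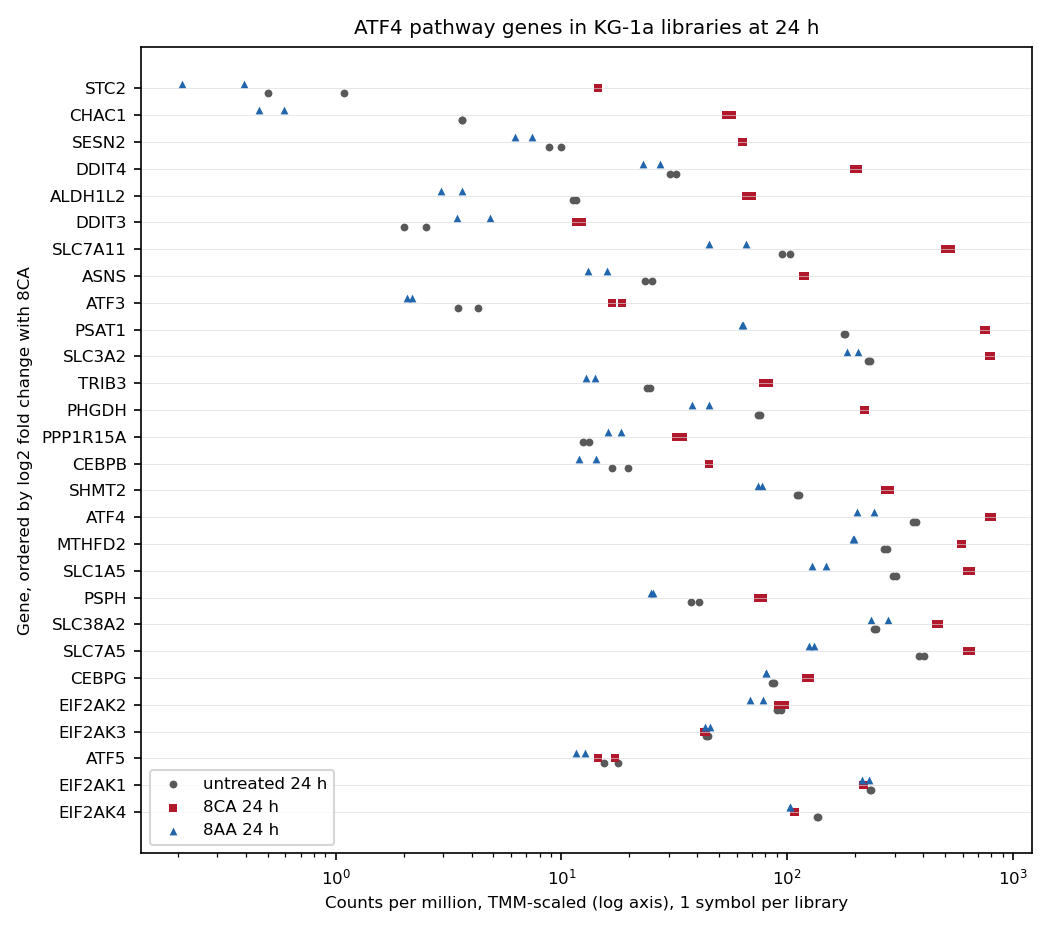
CPM (log axis) of the 28 ATF4 pathway genes tested in the 6 KG-1a libraries of 24 h, 1 symbol for each library, with grey circles for untreated, red squares for 8CA and blue triangles for 8AA, and the genes ordered by their log2 fold change with 8CA. For most genes the 8CA libraries sit to the right of both other groups, as in CHAC1, with 56.8 and 53.4 CPM against 3.63 and 3.64 untreated and 0.459 and 0.591 with 8AA.

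The ATF4 letters were found in 277 of the 10133 tested genes that had a RefSeq promoter window (2.73%), and in 3.62% of all 35116 windows. In the ATF4 list they were found in 6 of 24 genes with a window (25%), namely ATF3, CHAC1, ASNS, SLC3A2, SLC1A5 and CEBPG. All 6 were called higher, as were 82.1% of all genes tested of that list. In the tRNA synthetase list they were found in 5 of 12 (41.7%), namely AARS, CARS, IARS, NARS and TARS. All 5 were called higher, as were 65.0% of that list. Of the 277 genes, which include these list members, 87 were called higher (31.4%) and 52 lower (18.8%), beside 23.4% and 24.0% of all genes tested.

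The synthetases that charge tRNA in the cytosol split. Of 20 tested, 13 were called higher and 6 lower, with a median log2 fold change of 0.44. WARS, which charges tryptophan tRNA, stood at 136 CPM in both untreated libraries and at 615 and 607 CPM with 8CA, a change of 2.17 ± 0.05. CARS (cysteine) rose from 86.2 and 84.8 CPM to 194 and 187 CPM, by 1.16 ± 0.05, GARS (glycine) from 248 and 249 CPM to 541 and 532 CPM, by 1.11 ± 0.05, and AARS (alanine) from 331 and 346 CPM to 687 and 657 CPM, by 0.99 ± 0.06. VARS (valine) fell from 133 and 143 CPM to 81.1 and 82.0 CPM, by 0.76 ± 0.06, and FARSA, a subunit for phenylalanine, by 0.38 ± 0.06. QARS (glutamine) did not pass the test, at a change of 0.01.

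The ER list moved mostly the other way. Of 24 genes, 16 were called lower and 3 higher, with a median log2 fold change of −0.56. HSPA5 (BiP), the main chaperone of the ER, stood at 839 and 860 CPM untreated and at 285 and 277 CPM with 8CA, a change of −1.60 ± 0.06. SDF2L1, a partner of HSPA5, stood at 22.6 and 25 CPM against 7.89 and 6.90 CPM (−1.68 ± 0.14), and MANF, a secreted protein of ER stress, at 90.9 and 98.4 CPM against 33.3 and 35.9 CPM (−1.45 ± 0.08). PDIA4, which forms disulfide bonds, stood at 155 and 153 CPM against 67.3 and 62.3 CPM (−1.25 ± 0.05). HSP90B1 fell by 1.14 ± 0.05, CRELD2 by 0.97 ± 0.09 and CALR by 0.85 ± 0.06. In each of these chaperones both treated libraries lay below both untreated ones, as is so for nearly every gene called lower. The genes called higher were not chaperones. They were ERN1 (IRE1α), the sensor of unfolded protein, with 0.81 ± 0.12, HERPUD1, with 0.53, and EDEM1, both of ER-associated degradation, the latter with 0.47. The factors XBP1 and ATF6 were not called, at −0.09 and 0.09.

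The ER stress element was in 15 of the 10133 tested genes with a window (0.148%). Of these 15, 9 were called lower and 1 higher, beside 24.0% lower and 23.4% higher of all genes tested. Of the 9 called lower, 7 were members of the ER list itself. In the ER list it was found in 8 of 23 genes (34.8%). HSPA5, HSP90B1, PDIA6, CALR, CANX, CRELD2 and SERP1 were called lower, and XBP1 was not called. The element was found in 0 of 24 ATF4 genes.

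The cholesterol list had the lowest median of the lists with at least 5 genes tested. Of its 29 genes tested, 23 were called lower and 3 higher, with a median of −0.73. HMGCS1, which makes the precursor of mevalonate, stood at 210 and 207 CPM untreated and at 72.9 and 74.8 CPM with 8CA, a log2 fold change of −1.50 ± 0.05. DHCR7, the last enzyme of the pathway, stood at 258 and 263 CPM against 117 and 110 CPM (−1.20 ± 0.06), and INSIG1, which holds SREBP in the ER, at 157 and 152 CPM against 73.0 and 72.7 CPM (−1.08 ± 0.05). The cholesterol exporters moved the other way. ABCG1 rose from 76.1 and 76.5 CPM to 111 and 113 CPM, by 0.56 ± 0.05, and ABCA1 from 205 and 198 CPM to 285 and 302 CPM, by 0.54 ± 0.09. MYLIP, a ubiquitin ligase, was the other gene called higher, at 0.15. SREBF2, which encodes the SREBP of this pathway, was called lower with a change of −0.16. The sterol element TCACNCCAC, searched on both strands, was in the window of 1 of 22 genes (4.55%), SREBF2, and in 1.49% of the tested genes with a window.

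Of 25 genes of fatty acid synthesis and oxidation, 14 were called lower and 2 higher, with a median of −0.25. The synthesis genes fell furthest. SCD, the desaturase that makes oleate, stood at 1188 and 1224 CPM untreated and at 559 and 565 CPM with 8CA, a log2 fold change of −1.10 ± 0.04. FASN fell by 0.89 ± 0.06, FADS2 by 0.73 ± 0.06 and ACLY by 0.59 ± 0.04.

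Chaperones of the cytosol and proteasome subunits held calls in the lower direction and 0 in the higher one. Of 42 cytosolic chaperones and heat shock genes, 32 were called lower and 0 higher, with a median of −0.42. HSP90AA1, a heat-inducible HSP90, stood at 2205 and 2147 CPM untreated and at 1299 and 1275 CPM with 8CA (−0.76 ± 0.05), and FKBP4, a partner of HSP90, at 714 and 722 CPM against 404 and 397 CPM (−0.84 ± 0.06). HSPH1, a nucleotide exchange factor for HSP70, fell by 0.73 ± 0.04. Of 48 proteasome subunits, 35 were called lower and 0 higher, with a median of −0.31. PSMD1, a subunit of the regulatory cap, stood at 254 and 251 CPM against 133 and 127 CPM (−0.96 ± 0.05), PSMD2 fell by 0.73 ± 0.05 and PSMD11 by 0.70 ± 0.04.

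Mitochondrial genes encoded in the nucleus fell too. Of 76 respiratory chain subunits, 59 were called lower and 0 higher, with a median of −0.33. ATP5G1, which encodes the ring subunit of ATP synthase, stood at 83.0 and 82.6 CPM untreated and at 38.4 and 37.1 CPM with 8CA (−1.13 ± 0.08), and cytochrome c, CYCS, at 197 and 195 CPM against 110 and 117 CPM (−0.79 ± 0.09). Of 73 mitochondrial ribosomal proteins, 46 were called lower and 2 higher, with a median of −0.27. Of 17 mitochondrial chaperones and proteases, 9 fell and 4 rose. The chaperonin pair HSPE1 and HSPD1 fell by 1.06 ± 0.08 and 0.71 ± 0.04, while the protease LONP1 rose from 187 and 194 CPM to 271 and 264 CPM, by 0.49 ± 0.05, and GRPEL2 by 0.64 ± 0.08. The table holds 0 genes of the mitochondrial chromosome.

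Factors that build ribosomes and the proteins of the ribosome itself moved in different directions. Of 54 ribosome biogenesis factors, 42 were called lower and 2 higher, with a median of −0.34. EBNA1BP2 stood at 100 and 104 CPM untreated and at 55.1 and 57.1 CPM with 8CA (−0.86 ± 0.06), and LYAR at 66.5 and 64.1 CPM against 39.0 and 39.7 CPM (−0.73 ± 0.06). Of 78 cytosolic ribosomal proteins, 30 were called higher and 2 lower, with a median of 0.11. RPL13A rose from 1010 and 1032 CPM to 1364 and 1340 CPM, by 0.40 ± 0.06, and RPL4 by 0.32 ± 0.06. EEF2, which moves the ribosome along mRNA, rose from 2816 and 2973 CPM to 4466 and 4320 CPM, by 0.60 ± 0.06, and EIF1, which selects start codons, from 394 and 400 CPM to 678 and 670 CPM, by 0.76 ± 0.06. The scaffold EIF4G1 fell from 1034 and 1077 CPM to 681 and 676 CPM, by 0.64 ± 0.05. In the whole list of 46 translation factors, 22 were called lower and 15 higher.

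**Figure D3:**
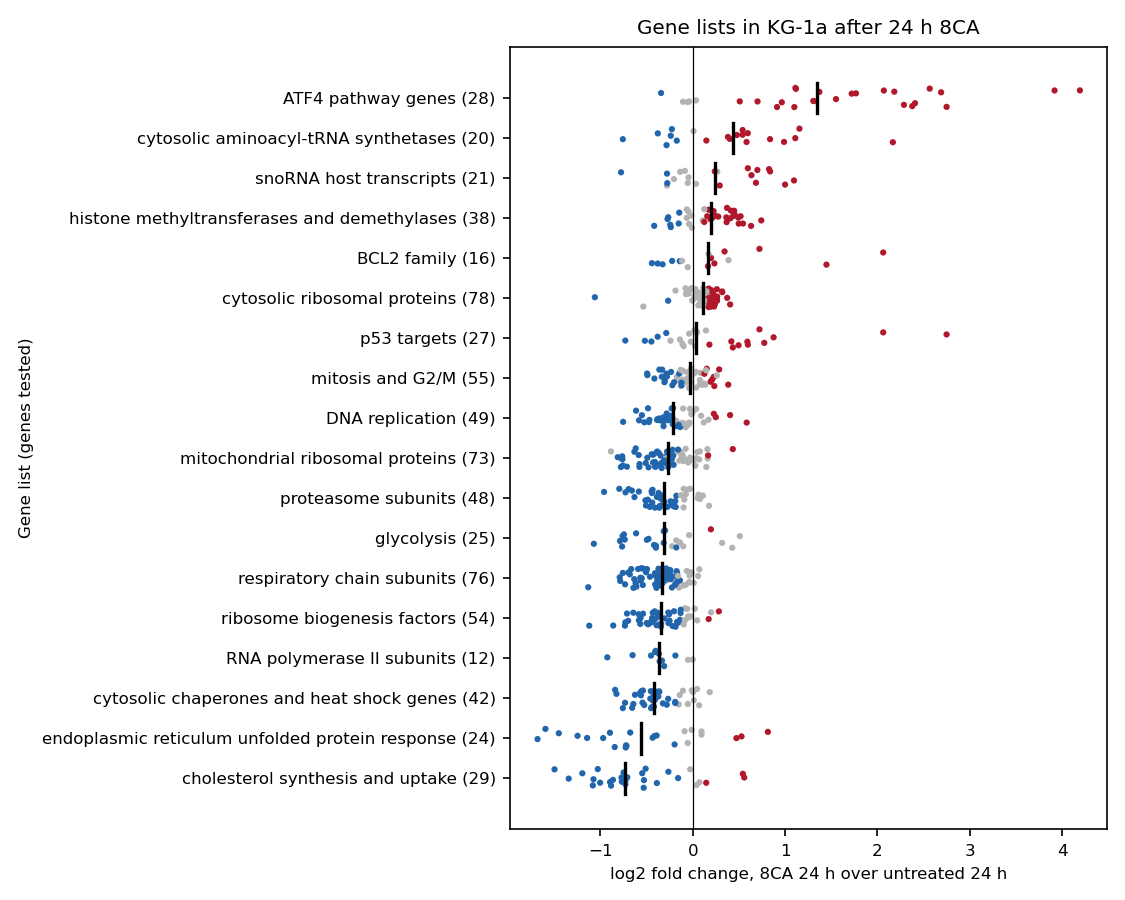
Each point is a gene of 1 of 18 gene lists, with the number of genes tested in parentheses on the vertical axis and the log2 fold change (8CA 24 h over untreated 24 h) on the horizontal axis, red where called higher, blue where called lower and grey where not called, and a black bar at the median of the list. The ATF4 list lies furthest to the right, with a median of 1.34, and the cholesterol list furthest to the left, with a median of −0.73.

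Genes of transcription and RNA processing gave a mixed picture, beside 24.0% called lower and 23.4% higher of all genes tested. Of 12 RNA polymerase II subunits, 10 were called lower and 0 higher, with a median of −0.36. The smallest subunit POLR2L stood at 46.0 and 46.2 CPM untreated and at 25.9 and 22.5 CPM with 8CA (−0.93 ± 0.11). Of 30 elongation factors, 13 rose and 7 fell, among them SUPT6H, a histone chaperone of elongation, which rose from 251 and 262 CPM to 360 and 354 CPM, by 0.48 ± 0.05. Of 22 cleavage and polyadenylation factors, 7 fell (31.8%) and 4 rose (18.2%), not far from the shares of all genes tested. PCF11, which couples cleavage to termination, rose from 149 and 142 CPM to 222 and 226 CPM, by 0.62 ± 0.05. CPSF6, CPSF7 and NUDT21, the subunits of cleavage factor I, were not called, with changes of 0.11, 0.09 and −0.05. Of 22 SR splicing factors and CLK kinases, 9 fell and 8 rose. SRSF2 stood at 399 and 397 CPM against 250 and 255 CPM (−0.66 ± 0.04) and SRSF1 at 722 and 716 CPM against 503 and 508 CPM (−0.51 ± 0.05), while the kinases CLK4 and CLK1, which phosphorylate such factors, rose by 0.40 ± 0.09 and 0.38 ± 0.06.

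Transcripts that host small nucleolar RNAs in their introns, many of which are decayed when they are translated, rose in 10 of 21 (47.6%) and fell in 3 (14.3%). Of all genes tested, 23.4% were called higher and 24.0% lower. GAS5 rose from 177 and 175 CPM to 311 and 318 CPM, by 0.84 ± 0.05, SNHG7 from 40.1 and 40.0 CPM to 86.1 and 85.2 CPM, by 1.10 ± 0.07, and ZFAS1 from 54.8 and 50.4 CPM to 96.2 and 90.4 CPM, by 0.83 ± 0.08. DANCR fell from 88.5 and 91.8 CPM to 50.7 and 54.5 CPM, by 0.78 ± 0.06. Of 16 factors of nonsense-mediated decay, 8 rose and 3 fell, with UPF3B at 0.65 ± 0.07 and UPF2 at 0.55 ± 0.05 among those that rose and EIF4A3, of the exon junction complex, at −0.38 ± 0.06 among those that fell.

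Of 25 glycolysis genes, 16 were called lower and 1 higher, with a median of −0.32. LDHA, which turns pyruvate into lactate, stood at 1230 and 1242 CPM untreated and at 591 and 585 CPM with 8CA (−1.07 ± 0.05), and PKM fell by 0.77 ± 0.06 and TPI1 by 0.76 ± 0.07. Of 49 DNA replication genes, 29 were called lower and 4 higher, with a median of −0.21. FEN1, a flap endonuclease, stood at 367 and 376 CPM against 221 and 219 CPM (−0.75 ± 0.06), while CDT1, which loads the replicative helicase, rose from 94.8 and 96.2 CPM to 151 and 135 CPM, by 0.58 ± 0.07. Of 26 cyclins, CDKs and inhibitors of the G1/S transition, 13 fell and 3 rose, with CCNE1 at 34.3 and 38.3 CPM against 18.8 and 15.3 CPM (−1.09 ± 0.10) and CCNE2 at −0.73 ± 0.07. Of 55 mitotic genes, 16 fell (29.1%) and 8 rose (14.5%), beside 24.0% and 23.4% of all genes tested. Their median of −0.04 turned above 0 under upper-quartile scaling, and BIRC5 (survivin) fell by 0.49 ± 0.06 while CENPF rose by 0.38 ± 0.04.

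In the BCL2 family, which sets the threshold of mitochondrial cell death, 7 of 16 genes were called higher (43.8%) and 5 lower (31.2%). Of all genes tested, 23.4% were called higher and 24.0% lower. The largest rises were in activators of death with only a BH3 domain. BBC3 (PUMA) stood at 0.605 and 0.653 CPM untreated and at 3.08 and 2.19 CPM with 8CA, a log2 fold change of 2.06 ± 0.30. BMF stood at 33.4 and 34.9 CPM against 95.5 and 90.8 CPM (1.45 ± 0.07), and PMAIP1 (NOXA) at 35.9 and 35.6 CPM against 60.1 and 57.8 CPM (0.72 ± 0.07). BCL2 itself, which opposes them and is the target of venetoclax, stood at 294 and 289 CPM against 338 and 331 CPM (0.20 ± 0.04). BAX and BID fell by 0.38 ± 0.08 and 0.44 ± 0.06. Of 27 p53 targets, a list that also holds SESN2 and BBC3, 11 rose (40.7%) and 5 fell (18.5%), with MDM4 at 0.88 ± 0.07 and TIGAR at −0.73 ± 0.11.

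TSC22D3 (GILZ), a gene that glucocorticoids are known to induce, was among the genes that rose most outside the ATF4 list. It stood at 1.92 and 1.41 CPM in the untreated libraries and at 15.3 and 14.5 CPM with 8CA, a log2 fold change of 3.15 ± 0.19. KDM7A, a histone demethylase, rose from 2.12 and 2.39 CPM to 8.82 and 10.5 CPM, by 2.10 ± 0.18, and VEGFA, a growth factor of blood vessels, from 11.8 and 13.2 CPM to 46.1 and 45.1 CPM, by 1.87 ± 0.09. TXNIP, which binds thioredoxin and curbs glucose uptake, rose from 62.0 and 64.5 CPM to 147 and 149 CPM, by 1.23 ± 0.05. Its relative ARRDC3 rose by 0.98 ± 0.10. Among the genes that fell most outside the lists of ER and cholesterol genes were ANXA2, a membrane-binding annexin, at 36.6 and 34.3 CPM against 14 and 15.2 CPM (−1.28 ± 0.08), RERGL at −1.43 ± 0.11, PLAUR, the urokinase receptor, at −1.23 ± 0.13, TRIM6 at −1.17 ± 0.16 and NT5DC2 at −1.16 ± 0.07.

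Immune genes and genes of stem cells changed in both directions, as did all genes tested, with 24.0% called lower and 23.4% higher. Of 28 NF-κB subunits and targets, 11 rose and 4 fell, with ICAM1 at 26.7 and 25.7 CPM against 48.6 and 50.7 CPM (0.92 ± 0.07) and TNFAIP3 at 0.60 ± 0.07. Of 46 interferon-stimulated genes, 17 rose and 10 fell, with XAF1 at 24.9 and 24.7 CPM against 57.4 and 54.9 CPM (1.18 ± 0.08) and CMPK2 at −0.57 ± 0.04. IFI27 fell furthest in that list, at 0.807 and 0.816 CPM against 0.327 and 0.248 CPM (−1.47), a call that was lost without 8CA 24 h B (−1.30) and with DESeq2. Of 14 genes of MHC class I presentation, 4 rose and 1 fell, with HLA-E, a ligand of natural killer cell receptors, at 124 and 131 CPM against 229 and 221 CPM (0.82 ± 0.05). Of 29 surface molecules of leukemic stem cells, 8 fell (27.6%) and 5 rose (17.2%), not far from the shares of all genes tested. IL1RAP was at −0.62 ± 0.10, and CD38 rose from 7.71 and 7.12 CPM to 11.3 and 11.9 CPM, at 0.65 ± 0.14. CD34 fell from 424 and 432 CPM to 349 and 340 CPM, by 0.31 ± 0.06, and CD3D from 260 and 266 CPM to 191 and 181 CPM, by 0.50 ± 0.07. Of 35 stem cell and myeloid transcription factors, 10 rose and 4 fell, with HOXA7 at −0.51 ± 0.06 and RUNX3 at 0.40 ± 0.06.

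The study asked how the drugs act on the enzyme that makes S-adenosylmethionine (SAM), the methyl donor of the cell. That enzyme's gene, MAT2A, stood at 545 and 541 CPM in the untreated libraries and at 464 and 462 CPM with 8CA. Both treated libraries were lower, and the log2 fold change was −0.23 (95% interval −0.32 to −0.15, adjusted p = 0.000235 by edgeR's test). METTL16, which methylates the hairpins of MAT2A RNA, stood at 77.1 and 82.1 CPM against 86.3 and 87.1 CPM. It was not called, with a change of 0.12 and an adjusted p of 0.0837 by edgeR's test. METTL16 was called higher when edgeR scaled by library size or upper quartiles. It was also called higher with only the 4 libraries in the fit or without the 8AA 24 h pair. Adjusted p in these edgeR settings ran from 0.0181 to 0.0295. Leaving out 1 of the 4 libraries gave METTL16 changes from 0.06 to 0.17. METTL3 was at −0.03 and not called, while METTL14 was called higher at 0.33 ± 0.07. In the list of 20 m6A writers, erasers and readers, 7 rose (35.0%) and 3 fell (15.0%), beside 23.4% and 24.0% of all genes tested. In the list of 17 methionine cycle genes, 9 fell (52.9%) and 1 rose (5.88%). SRM, which makes spermidine from decarboxylated SAM, stood at 181 and 189 CPM against 103 and 95.4 CPM (−0.90 ± 0.07), AMD1, the step before it, fell by 0.57 ± 0.06, and CTH, which makes cysteine, rose by 0.64 ± 0.14.

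The list of histone enzymes and that of arginine methylation, which add or remove methyl groups on proteins, moved in different directions. Of 38 histone methyltransferases and demethylases, 23 were called higher and 7 lower, with a median of 0.20. The 23 called higher included methyltransferases as well, since the list holds fewer demethylases than that. KDM6B and KDM4A, both demethylases, rose by 0.74 ± 0.09 and 0.63 ± 0.05, and SUV39H2, a methyltransferase of H3K9, fell by 0.42 ± 0.06. Of 11 genes of arginine methylation, 8 fell and 0 rose, with a median of −0.32. WDR77, the partner of PRMT5, stood at 88.3 and 88.9 CPM against 50.2 and 50.5 CPM (−0.82 ± 0.06), and PRMT1 fell by 0.49 ± 0.06.

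Genes that carry and convert nucleosides are of interest because 8CA enters cells and is phosphorylated like adenosine. Of 23 tested, 11 were called lower (47.8%) and 6 higher (26.1%), with a median of −0.26. Of all genes tested, 24.0% were called lower and 23.4% higher. The equilibrative transporter SLC29A1 stood at 114 and 117 CPM against 71.0 and 68.9 CPM (−0.72 ± 0.07), and SLC29A2 at 64.4 and 68.6 CPM against 43.3 and 41.9 CPM (−0.64 ± 0.06). PNP, which splits purine nucleosides, fell by 0.69 ± 0.07 and NME1, a nucleoside diphosphate kinase, by 0.88 ± 0.10. Of 16 genes of de novo purine and pyrimidine synthesis, 10 fell and 1 rose, with PAICS at 767 and 759 CPM against 559 and 555 CPM (−0.45 ± 0.04).

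Classes of genes defined by name or length also differed in how often they were called. Of all genes tested, 23.4% were called higher and 24.0% lower. Of 239 zinc finger (ZNF) genes on chromosome 19, 112 were called higher (46.9%) and 4 lower (1.67%), with a median of 0.22. Of 224 ZNF genes on other chromosomes, 91 were higher (40.6%) and 11 lower (4.91%). Of 111 LINC transcripts, 43 were higher (38.7%) and 6 lower (5.41%), and of 245 antisense transcripts 80 were higher (32.7%) and 14 lower (5.71%). Reads of an antisense transcript and of its partner cannot be told apart where counting ignored strand. The share of genes called lower fell from 30.8% in the bin with the shortest exon length, when the genes tested were cut into 5 bins of equal size, at most 1.96 kb, to 16.4% in the longest, at least 5.95 kb, while the share called higher rose from 13.0% to 35.1%. By the genomic span of the gene, which includes introns, the share lower went from 25.2% to 18.5% and the share higher from 17.2% to 28.4%. Level moved with the calls as well, since 6.21% of the bin with the lowest level were called lower and 37.3% of the bin with the highest, and 15.4% and 26.7% of these bins were called higher. Median exon length was 2.59 kb in the bin of lowest level and 4.64 kb in that of highest level, and the parts of length and level in these shares were not tested.

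**Figure D4:**
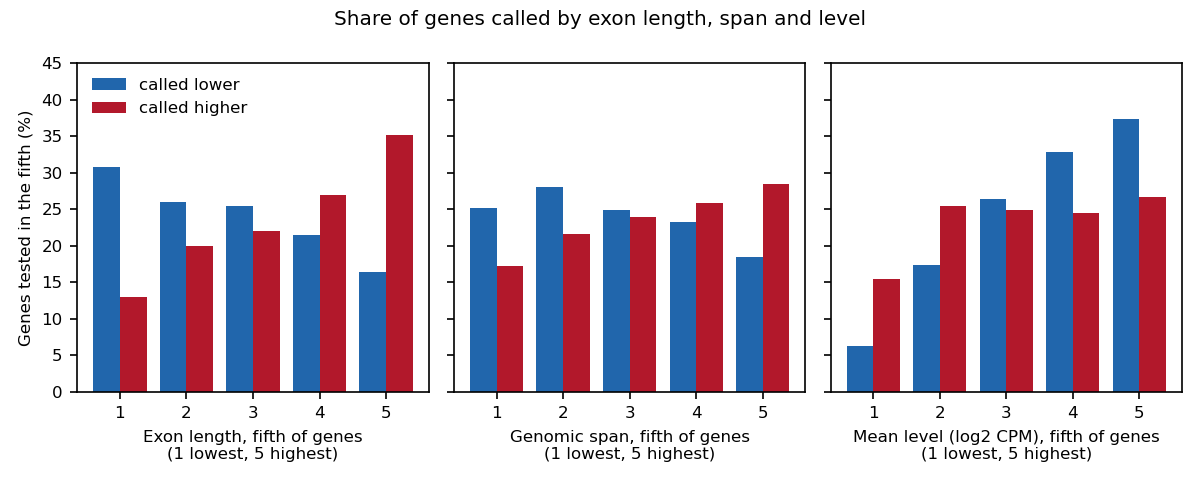
Percent of the genes tested that were called lower (blue bars) and higher (red bars) after 24 h of 8CA, in 5 bins of equal size by exon length, genomic span and mean level. The blue bars fall from 30.8% to 16.4% and the red bars rise from 13.0% to 35.1% from the bin of shortest to the bin of longest exon length.

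Against untreated cells of 8 h, 8CA changed 23 genes lower (0.181%) and 89 higher (0.70%). The change at 24 h differed from that at 8 h in 1613 genes with a lower value at 24 h (12.7%) and 1423 with a higher one (11.2%), tested as the difference itself with separate untreated libraries at each time. The 112 calls at 8 h moved with the setting, from 28 without 8CA 8 h A to 740 without the 8AA libraries in the fit, and the 3036 differences fell to 2015 without 8CA 8 h A and to 2017 without 8CA 24 h B. Of the ATF4 list, 15 of 28 genes were already called higher at 8 h, with a median of 0.42, and 22 had a higher change at 24 h than at 8 h. CHAC1 stood at 3.68 and 3.44 CPM untreated and at 33.1 and 34.3 CPM with 8CA at 8 h (3.24), and its change grew by 0.68 to 24 h. ATF3 did not pass the test of a difference, with 2.03 at 8 h and 2.18 at 24 h (difference 0.15, adjusted p = 0.66 by edgeR's test). WARS and ASNS came late. WARS stood at 139 and 141 CPM against 147 and 153 CPM at 8 h (0.11) and then differed by 2.06, and ASNS stood at 21.9 and 20.5 CPM against 27.5 and 25.9 CPM at 8 h (0.34) and then differed by 1.95.

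The lists that were lower at 24 h held few calls at 8 h. HMGCS1 stood at 199 and 200 CPM untreated and at 197 and 209 CPM with 8CA at 8 h, a change of 0.02, and the difference of the changes was −1.52. In the cholesterol list, 0 of 29 genes were called in either direction at 8 h and 20 had a lower change at 24 h. HSPA5 was the ER gene called at 8 h, at 1410 and 1349 CPM against 1037 and 1017 CPM (−0.43), with a further −1.17 at 24 h. In the ER list 15 genes had a lower change at 24 h. Among cytosolic chaperones, 2 were called higher at 8 h, one of them HSPH1 at 0.26, and 29 had a lower change at 24 h. MAT2A was not shown to differ between the times, with −0.24 at 8 h and a difference of 0.01 (adjusted p = 0.94 by edgeR's test).

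8CA and 8AA were compared directly at 1 μM and 24 h, as 8AA minus 8CA, the single pair of drugs compared. With 8AA, 2752 genes were lower than with 8CA (21.7%) and 2584 higher (20.3%). The 2 KG-1a libraries with 8AA at 24 h differed from each other more than any other pair, as given above. Leaving out 8AA A gave 5597 differences between the drugs and leaving out 8AA B gave 5961, beside 5336 with both. The drugs share their untreated libraries, which do not enter this direct test. The ATF4 list set them apart, since 25 of its 28 genes were lower with 8AA and 0 higher. CHAC1 stood at 0.459 and 0.591 CPM with 8AA, against 56.8 and 53.4 CPM with 8CA, a difference of −6.71 (95% interval −6.98 to −6.44). PSAT1 stood at 63.2 and 64.0 CPM with 8AA against 746 and 760 CPM (−3.57, −3.67 to −3.46), and ALDH1L2 at 2.92 and 3.64 CPM against 65.5 and 70.1 CPM (−4.38, −4.58 to −4.17). SLC7A11 differed by −3.23 and VEGFA by −3.29. For these 5 genes the 8AA libraries were also below the untreated ones, with log2 fold changes against untreated of −2.79 for CHAC1, −1.50 for PSAT1, −1.81 for ALDH1L2, −0.85 for SLC7A11 and −1.42 for VEGFA.

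Among tRNA synthetases, 17 of 20 were lower with 8AA than with 8CA and 0 higher, and among ribosome biogenesis factors 44 of 54 were lower and 1 higher. ER genes ran the other way, with 12 of 24 higher with 8AA and 4 lower, as did the cholesterol list, with 19 of 29 higher and 3 lower. HSPA5 stood at 479 and 413 CPM with 8AA, between the 285 and 277 CPM of 8CA and the untreated level, a difference of 0.67 (0.54 to 0.79). HMGCS1 stood at 109 and 114 CPM with 8AA, also between, a difference of 0.60 (0.49 to 0.70). Of 55 mitotic genes, 32 were higher with 8AA and 0 lower. The largest differences in favour of 8AA were in SAMSN1-AS1 at 1.73, CCDC162P at 1.64, CXCR4 at 1.52, MXD4 at 1.34 and HEMGN at 1.34. MXD4, a partner of MAX that opposes MYC, stood at 96.2 and 87.7 CPM with 8AA and at 35.9 and 36.9 CPM with 8CA, beside 35.1 and 35.0 CPM untreated. CXCR4, a homing receptor, stood at 13.5 and 12.9 CPM with 8AA and at 4.95 and 4.27 CPM with 8CA.

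Some genes differed little between the drugs. The difference was 0.00 for HSP90AA1 (95% interval −0.11 to 0.10), 0.00 for ABCG1 (−0.10 to 0.10), 0.07 for FASN (−0.05 to 0.19), 0.06 for CCNE1 (−0.16 to 0.28) and −0.02 for BCL2 (−0.12 to 0.07), none of them called. MAT2A was called lower with 8AA than with 8CA, at 408 and 398 CPM against 464 and 462 CPM (−0.20, −0.28 to −0.11), and so was METTL16, at 67.5 and 60.8 CPM against 86.3 and 87.1 CPM (−0.43, −0.55 to −0.31).

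**Figure D5:**
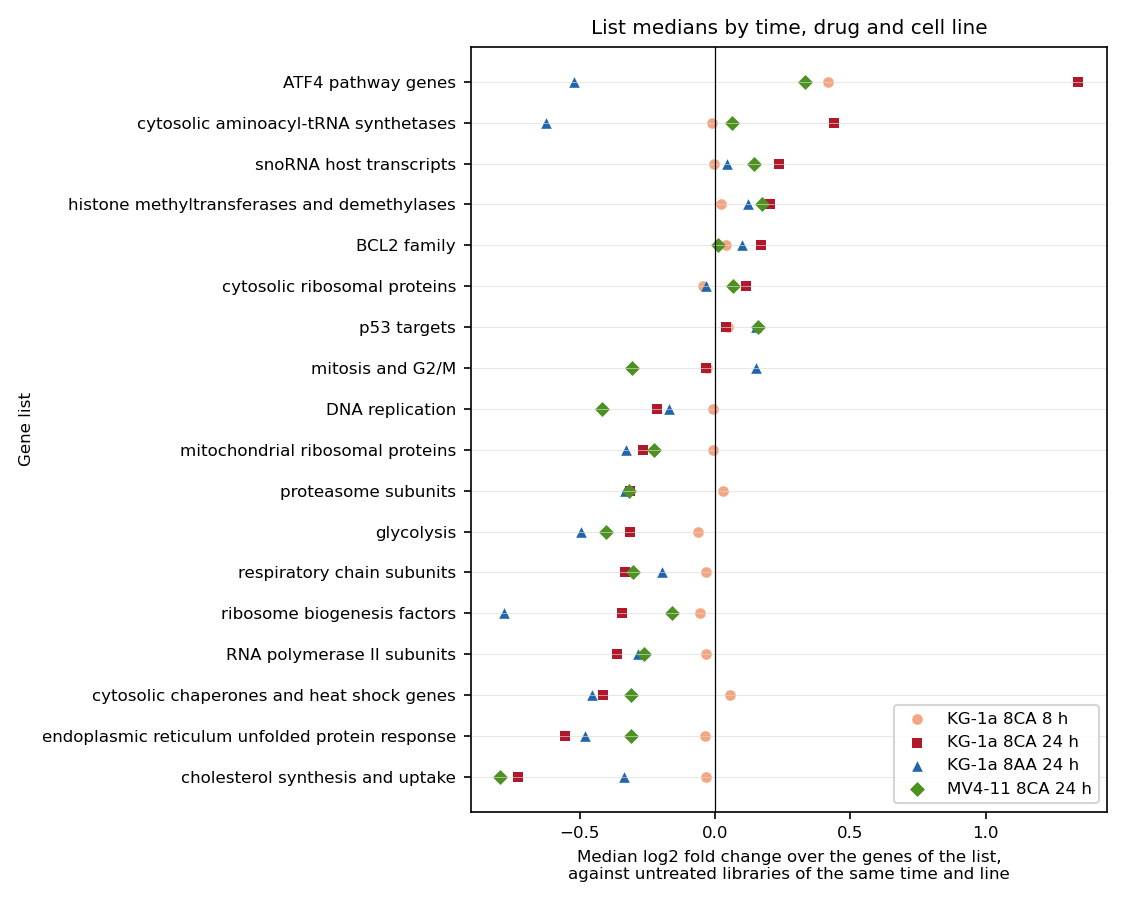
Median log2 fold change over the genes of 18 lists (horizontal axis), each against untreated libraries of the same line and time, for KG-1a with 8CA at 8 h (orange circles) and 24 h (red squares), KG-1a with 8AA at 24 h (blue triangles) and MV4-11 with 8CA at 24 h (green diamonds). The red squares and blue triangles share their untreated libraries, and for the ATF4 list they stand at 1.34 and −0.52, with the green diamond at 0.33.

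The change with 8CA at 24 h was set against that in MV4-11 with all 24 libraries fitted together, where 14055 genes could be tested. The change in KG-1a was lower in 809 (5.76%) and higher in 765 (5.44%). These 1574 differences came to 1008 without KG-1a untreated A, 1030 without KG-1a 8CA A and 1040 without MV4-11 untreated B. Of the ATF4 list, 23 of 28 genes had a higher change in KG-1a and 1 a lower one, with a median change of 1.34 in KG-1a and 0.33 in MV4-11. DDIT4 was among those that differed most, with 2.69 in KG-1a and −0.21 in MV4-11, not called there, a difference of 2.90. TSC22D3 likewise stood at −0.21 in MV4-11, not called, a difference of 3.36. CHAC1 was called higher in MV4-11, at 1.59, and differed by 2.33. WARS was at 0.42 in MV4-11 and differed by 1.75, PSAT1 was at 0.45 and differed by 1.61, and EIF4EBP1 was at −0.11, not called, and differed by 1.35. SHMT2 was at 0.01 in MV4-11, not called, and differed by 1.30.

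Among the lists that fell in KG-1a, ribosome biogenesis factors had 18 of 54 genes with a lower change in KG-1a than in MV4-11 and 0 with a higher one. Of all genes tested in this comparison, 5.76% had a lower change in KG-1a and 5.44% a higher one. In the cholesterol list, 7 of 29 genes differed with a higher change in KG-1a and 1 with a lower one, HMGCS1 (−1.20 in MV4-11, difference −0.30). In the ER list 8 of 24 had a lower change in KG-1a and 3 a higher one, and HSPA5 was at −0.89 in MV4-11, a difference of −0.71. Of 48 proteasome subunits 5 had a lower change in KG-1a and 1 a higher one, and of 76 respiratory chain subunits 4 and 0. Most genes of both lists were thus not shown to differ between the lines. LDHA was not shown to differ (−0.95 in MV4-11, difference −0.12, adjusted p = 0.28 by edgeR's test), nor was SCD (−1.18, difference 0.08, adjusted p = 0.49). Of 55 mitotic genes, 27 had a higher change in KG-1a and 0 a lower one, with medians of −0.04 in KG-1a and −0.31 in MV4-11. Of 49 DNA replication genes, 17 had a higher change in KG-1a and 0 a lower one, with medians of −0.21 and −0.42. MAT2A was at −0.04 in MV4-11, not called, and its change in KG-1a minus that in MV4-11 was −0.19 (adjusted p = 0.025 by edgeR's test). Whether this difference for MAT2A holds with single libraries left out was not tested.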

How the data were processed

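RNA was sequenced from 24 cell line samples. The authors deposited a table of raw read counts per gene for 23354 genes. The submitters' processing notes name Trimmomatic, STAR 2.6.0, HTSeq 0.11.1, edgeR, hg19 and hg38, without giving a role or order, so which build the counts rest on is not given in the sources used here and coordinates are printed only from RefSeq. From the counts as deposited, genes were filtered with filterByExpr (minimum count 10), scaled by TMM and fitted with edgeR 4.0.16 in R 4.3.3 by the quasi-likelihood method, with 1 mean per group, over the 12 KG-1a libraries, and over all 24 libraries for the difference between the lines. Log2 fold changes come from these fits. A standard error is the absolute log2 fold change divided by the square root of the F statistic of the test, and 95% intervals were built from it. Adjusted p-values are Benjamini-Hochberg values over all genes of the fit, and the threshold was 0.05. All columns of the table were mapped to samples, and 0 were left unused. Other scalings, filters, sets of libraries, a replicate block, DESeq2 1.42.0 and leaving out each library were tried.

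Promoter windows were matched by gene symbol for 10133 of the 12711 genes tested (79.7%). Library totals set the precision of counts, and no interval covers anything beyond the spread between libraries and counting error.

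The lists, members and comparisons were chosen with earlier results of these data known, so they are not independent evidence of a direction. Genes were named by a rule: the 12 genes that rose most and the 12 that fell most, called, without overlap and averaging 2 log2 CPM or more; up to 6 called members of each list with the largest changes, at most 4 in each direction; the genes named as RNA in the study; the 5 largest differences in each direction by time, drug and line; and the 5 highest per exon length. Further genes of the ATF4, tRNA synthetase, ER and cholesterol lists were named after their values were seen. Some genes that the rule picks are not reported here.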

Additional observations from a re-analysis of the deposited data

Results flagged for a closer look

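The change with 8CA in KG-1a cells differed between 24 h and 8 h in 3036 genes, by edgeR's test of the difference itself. Genes among those with the most negative differences (change at 24 h minus change at 8 h, log2 scale) were HMGCS1 at −1.52, SDF2L1 at −1.47, ANXA2 at −1.26 and RERGL at −1.26. By edgeR, 0 of these 4 were called at 8 h, where their changes lay between −0.21 and 0.02. The most positive differences were in WARS at 2.06, MFAP4, a protein of the extracellular matrix, at 1.99, TSC22D3 at 1.99, ASNS at 1.95 and DDIT3 at 1.94.

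The change at 24 h differed between KG-1a and MV4-11 in 1574 genes, by the same kind of test. Among the most negative differences (KG-1a minus MV4-11) were those of MZB1 at −5.59, DUSP16 at −3.14, ZNF418 at −3.03 and RAB30 at −2.12. These genes had few reads in MV4-11. MZB1 went from 0 reads in both untreated libraries to 2 and 6 with 8CA, so its fitted value sets no bound. DUSP16 went from 11 and 9 reads to 76 and 71, ZNF418 from 1 and 0 to 9 and 7, and RAB30 from 2 and 4 to 15 and 5. The most positive differences were in LEF1 at 3.38, TSC22D3 at 3.36, SLCO4C1 at 2.93, DDIT4 at 2.90 and AK4 at 2.59. LEF1, a transcription factor of lymphoid cells and of WNT signalling, went from 7 and 5 reads to 1 and 0 in MV4-11, SLCO4C1 from 26 and 68 to 7 and 7, and AK4 from 29 and 48 to 4 and 5. TSC22D3 and DDIT4 were well covered in MV4-11, with 410 and 505 reads against 436 and 427 for TSC22D3 and 445 and 664 against 532 and 513 for DDIT4. The difference of MZB1, ZNF418, RAB30 or LEF1 lost its call when single libraries were left out: MV4-11 untreated A for all 4, MV4-11 untreated B for all but LEF1, MV4-11 8CA A for ZNF418 and RAB30, MV4-11 8CA B for MZB1, ZNF418 and LEF1, KG-1a 8CA A, 8CA B and untreated B for MZB1 and ZNF418, and KG-1a untreated A for MZB1. With DESeq2, LEF1 and ZNF418 lost it too.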

How the results depend on the processing

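The count of genes called at 24 h (6021) stayed within 1.5 times under every alternative scaling, filter, test and set of libraries tried. It was 4952 with DESeq2, 6066 with library size scaling, 6062 with upper-quartile scaling, 7266 with only the 4 libraries in the fit and 4456 to 4674 leaving out 1 of them. With a change of at least 1 on the log2 scale also asked for, it was 350, 89 lower and 261 higher. The split was 3049 lower and 2972 higher, and 2765 and 3301 by library size or 2624 and 3438 by upper quartiles. Leaving out 1 library gave 2328 to 2566 lower and 2080 to 2267 higher. The 8 h count (112) was 272 without a filter, 205 with the replicate block, 740 without the 8AA 24 h libraries in the fit, an alternative chosen after seeing the data, and 28 to 37 leaving out 1 library. Leaving out 1 library gave 2015 to 2413 genes for the difference between times (3036), fewest without 8CA 8 h A (2015) or 8CA 24 h B (2017), and 1008 to 1148 for that between lines (1574), with 1008 without KG-1a untreated A, 1030 without KG-1a 8CA A and 1040 without MV4-11 untreated B. The difference between the drugs (5336) ranged from 3820 to 5961 genes. The cause of these moves was not tested. The changes of 5 genes that were not called turned sign. LEF1 (−0.02) was at 0.0104 with library size and 0.0204 with upper quartiles, and METTL3 (−0.03) at 0.00195 and 0.012. Leaving out 1 library, LEF1 ran from −0.0387 to 0.000975 (without 8CA 24 h B), CD33 from −1.28 to 0.169 (without untreated A), called at the former (without untreated B, adjusted p = 0.0352), CD79A from −0.564 (without untreated A, and −0.252 without 8CA B) to 1.23, and SLCO4C1 from −0.0152 (without untreated B) to 0.166. METTL16 was called with library size (0.15, adjusted p = 0.0295), upper quartiles (0.16, 0.0283), the 4 libraries alone (0.12, 0.0181) and without the 8AA libraries (0.12, 0.0222), all in edgeR. It was not called with DESeq2, DESeq2's size factors, either other filter, the replicate block or all 24 libraries in the fit. Leaving out 1 of the 4 libraries gave METTL16 changes from 0.06 to 0.17. Of gene values leaving out 1 library, 1280 kept direction and call, 141 lost the call, 2 gained it and 5 turned. DESeq2 lost 19 calls. Medians just below 0 turned above it for DNA methylation enzymes, hypoxia genes and leukemic stem cell surface molecules under both scalings and for mitotic genes under upper quartiles, where list medians moved by up to 0.0372. The letters A and B share only a number. Over 15 pairs of groups the correlation of same-letter deviations ran from −0.0846 to 0.161, and the replicate block gave 6321 calls. At 2 libraries a group, genes with few reads limit the precision.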

Other observations

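Further lists held values of the same experiment, in which 24.0% of all genes tested were called lower and 23.4% higher. Of 42 AMPK and autophagy genes, 13 were called higher and 7 lower, with a median log2 fold change of 0.08. NBR1, a receptor that brings cargo to autophagosomes, stood at 98.2 and 100.7 CPM untreated and at 160 and 159 CPM with 8CA (0.68 ± 0.04). Of 24 glutathione and NRF2 genes, 7 were lower and 6 higher. PRDX1, which removes peroxides, fell from 775 and 769 CPM to 417 and 404 CPM (−0.91 ± 0.06), and FTH1, the heavy chain of the iron store ferritin, rose from 1228 and 1238 CPM to 2024 and 1947 CPM (0.69 ± 0.06). Of 20 hypoxia genes outside glycolysis, 4 were lower and 3 higher, and BNIP3, a receptor of mitophagy, was at −0.50 ± 0.10.

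MYCN, a relative of MYC, rose from 2.27 and 2.01 CPM to 5.97 and 6.26 CPM (1.51 ± 0.18), and MYC from 441 and 455 CPM to 560 and 548 CPM (0.31 ± 0.06), in a list of 10 genes with 4 higher and 1 lower. TK2, the mitochondrial thymidine kinase, rose from 9.78 and 11.5 CPM to 19.6 and 21.9 CPM (0.97 ± 0.10), in a list of 16 genes of dNTP supply with 9 lower and 2 higher. Of 14 DNA methylation enzymes, 5 were lower and 3 higher, with TDG, a base excision glycosylase, at −0.59 ± 0.05 and DNMT3A at 0.58 ± 0.09. Of 19 myeloid granule genes, 4 were lower (21.1%) and 2 higher (10.5%), with a median of −0.13. CTSG, a protease of neutrophil granules, was higher at 1.16 ± 0.15, and ANXA1 was lower at −0.17. Of 29 immediate early genes, 13 were higher and 5 lower, with BTG2 at 0.77 ± 0.10. Of 38 genes of homologous recombination and the Fanconi pathway, 7 were lower and 7 higher (18.4% each), beside 24.0% and 23.4% of all genes tested. Of 5 MHC class II genes 1 was higher, RFXAP at 0.54 ± 0.10.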
